A study of Homo sapiens with 6 samples.

Results

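The aminoacyl-tRNA synthetases and the AIMP scaffold proteins were examined as a list of 36 genes among the 67060 genes of the count table. The list was matched to the table by gene symbol. It held 18 synthetases of the cytosol (names ending in 1, with *FARSA* and *FARSB*), 16 synthetases of mitochondria (names ending in 2) and the scaffold genes *AIMP1* and *AIMP2*. RNA came from SH-SY5Y, a human neuroblastoma cell line that its label describes as a neuronal progenitor. Cells were infected with the adenovirus Ad CMV 3xFlag-*Esrrg*, in which the CMV promoter drives mouse *Esrrg* joined to a 3xFlag tag, or with the control virus Ad CMV GFP. Both groups received 0.5 microlitres of virus, and RNA was isolated after 24 h. Each group had 3 libraries of total RNA depleted of ribosomal RNA, numbered 1, 3 and 4 with Ad CMV GFP and 2, 3 and 4 with Ad CMV 3xFlag-*Esrrg*, and values below follow that order. The labels do not say whether the libraries came from separate cultures, so p-values measure the spread between these libraries, which may be technical. All cells were of the same line, carried an adenovirus and expressed a foreign protein from the CMV promoter, and the amount of ERRγ was not set by the cell's own promoter.

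Aminoacyl-tRNA synthetases attach each amino acid to its own tRNA, the step that fixes the genetic code. Most amino acids have a pair of nuclear genes, one for the enzyme of the cytosol and one for the enzyme that is imported into mitochondria and serves the translation of the respiratory chain subunits encoded there. *GARS1* and *KARS1* are exceptions, since each makes both forms of its enzyme. In the cytosol, several synthetases are held in the multisynthetase complex by AIMP1, AIMP2 and EEF1E1. Many cytosolic synthetase genes are known targets of ATF4, the transcription factor of the amino acid response, which binds the C/EBP-ATF response element TGATGNAA. ERRγ, the product of *ESRRG*, is an orphan nuclear receptor known for its control of genes of mitochondrial energy production, and binds the element TNAAGGTCA.

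Promoter sequences of 300 bases (250 before and 50 after the start, RefSeq, GRCh38.p14) were at hand for 32 of the 36 genes, with 44 promoters in all. *LARS1*, *YARS1*, *AARS2* and *VARS2* had no entry. Both strands were searched for TGATGNAA, which was found in 7 of the 16 cytosolic synthetases with a promoter (43.8%) and in 1 of the 14 mitochondrial ones (7.14%). Over all 35116 promoters of the table the share was 3.62%, and over their 27305 genes it was 4.46%. The matches are printed because most of them lay in cytosolic genes. Capitals mark the matched element, and each run is given 5′ to 3′ on the strand that carries it.
GARS1, chr7:30594834-30594863, minus strand: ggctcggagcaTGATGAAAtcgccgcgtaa
IARS1, chr9:92293692-92293721, plus strand: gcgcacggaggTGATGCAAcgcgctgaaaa
CARS1, chr11:3057407-3057436, plus strand: ttcctagaatcTGATGCAAccgccgccccg
MARS1, chr12:57488053-57488082, minus strand: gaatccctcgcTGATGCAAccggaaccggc
AARS1, chr16:70289675-70289704, plus strand: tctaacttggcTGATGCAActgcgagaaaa
NARS1, chr18:57621804-57621833, minus strand: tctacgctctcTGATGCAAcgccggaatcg
TARS1, chr5:33440956-33440985, minus strand: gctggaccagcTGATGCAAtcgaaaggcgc
YARS2, chr12:32756076-32756105, minus strand: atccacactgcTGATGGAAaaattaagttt
In *GARS1*, *IARS1*, *CARS1*, *MARS1*, *TARS1* and *NARS1* the element lay between 33 bases before and 21 bases after an annotated start. In *AARS1* and *YARS2* it lay further upstream, from base -187 to base -180 and from base -197 to base -190.

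The ERR element TNAAGGTCA was found in the promoter of *FARSA* alone among the 32 genes, beside 0.951% of all promoters and 1.17% of their genes. It is shown as the only match, and its part in the change of *FARSA* was not tested. The match lay from base -234 to base -226 and contains the shorter nuclear receptor motif AGGTCA.
FARSA, chr19:12933927-12933955, plus strand: attgattatcTCAAGGTCAgaagcaccgc
The motif AGGTCA by itself was found in *FARSA*, *KARS1*, *RARS1*, *TARS1* and *AIMP2* and in none of the 14 mitochondrial genes with a promoter, beside 16.5% of all genes with one. These matches describe letters in a window of 300 bases, and no binding was measured.

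Between 24969759 and 29700980 reads were counted on genes in the Ad CMV GFP libraries, and between 26513620 and 40859666 in the Ad CMV 3xFlag-*Esrrg* libraries. Reads that fell in no annotated gene made up 52.2%, 51.3% and 51.6% of the total with Ad CMV GFP, and 46.6%, 31.6% and 29.5% with Ad CMV 3xFlag-*Esrrg*. *ESRRG*, whose human gene collects reads of the mouse transgene as far as they align, averaged 87.0 counts per 1000000 counted reads (CPM) with Ad CMV GFP and 706 CPM with Ad CMV 3xFlag-*Esrrg*, a log2 fold change of 3.02 ± 0.14 (SE; edgeR, adjusted p = 6.28e-07). Of 12 adrenergic neuroblastoma markers, 10 were tested, with 1 called higher and 3 lower, and their summed level was 916 to 976 CPM with Ad CMV GFP and 657 to 852 CPM with Ad CMV 3xFlag-*Esrrg*. The defining markers *TH* and *CHGA* had 0 counts in every library, and 90.3% of the 31-base words of *CHGA* (none of those of *TH*) also occur in alternate contigs of the genome, where reads would align to several places. Of 8 mesenchymal markers, 1 was higher and 4 were lower, with summed levels of 3137 to 3256 CPM and 3649 to 3802 CPM. *FN1*, which was not called, made up most of that sum, and without it the other 7 summed to 1212 to 1279 CPM with Ad CMV GFP and 1028 to 1084 CPM with Ad CMV 3xFlag-*Esrrg*. Of 6 blood and epithelial markers, *CD3E* was at 0, and the list summed to 3.72 to 4.45 CPM in all libraries. The part of these differences in the synthetase results was not tested. In RNA from whole cultures, fewer cells of a type and less RNA per cell cannot be told apart.

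Most cytosolic synthetase transcripts and a smaller share of the mitochondrial ones were more abundant with Ad CMV 3xFlag-*Esrrg*, a difference between the classes that is described here and was not tested. Of the 36 genes, 34 passed the filter on low counts, 20 of them were called higher and 0 were called lower (0 also at an unadjusted p below 0.05 in edgeR and in DESeq2). A call required an adjusted p below 0.05 (edgeR's quasi-likelihood test, Benjamini-Hochberg over 24500 genes) and a change of at least 1.5-fold. By the same rule 17.3% of all tested genes were called higher and 16.8% lower, and among protein-coding genes 25.9% were higher and 12.4% lower. The 20 genes were 13 of the 18 cytosolic synthetases, 6 of the 14 tested mitochondrial synthetases and *AIMP2*, with adjusted p from 3.04e-05 to 0.0069. In 29 of the 34 genes every value of one group lay above every value of the other, as it did in 58.1% of all tested genes. The median log2 fold change was 0.82 for the cytosolic and 0.45 for the mitochondrial synthetases, beside 0.12 for protein-coding genes and -0.10 for all tested genes. In all 20 called genes, Ad CMV 3xFlag-*Esrrg* replicate 2 was the lowest library of its group, with a median of 61.9% (42.3% to 85.1%) of the change seen in replicates 3 and 4. The part in this of its share of reads in no gene, which lay between those of the other libraries (46.6%), was not tested. Without this library 15 cytosolic and 9 mitochondrial synthetases were called higher, beside 34.1% of protein-coding genes. With library size as the only scaling the counts were 7 and 3, and with each library's percentage of reads in no gene as a covariate they were 5 and 3. Under these last settings 13.5% and 9.48% of protein-coding genes were called higher, and the higher genes made up 22.5% and 57.3% of all calls instead of 50.7% (62.7% with DESeq2). The percentage of reads in no gene was separate between the groups, so in fits with this covariate its part cannot be told apart from that of the virus.

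**Figure D1:**
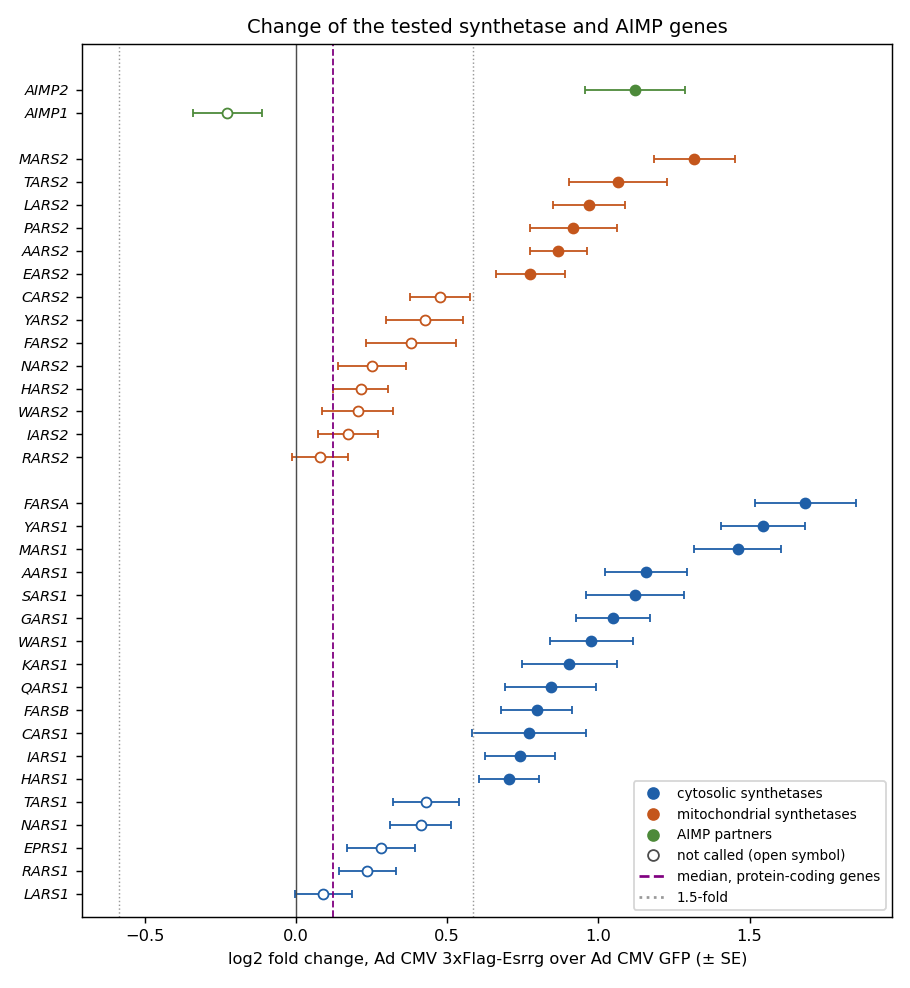
Log2 fold change (horizontal axis, Ad CMV 3xFlag-Esrrg over Ad CMV GFP) of the 34 tested genes, with bars of 1 SE from edgeR, filled symbols for called genes, a dashed line at the median of protein-coding genes (0.12) and dotted lines at 1.5-fold. The cytosolic genes run from 0.09 (LARS1) to 1.68 (FARSA), the mitochondrial ones from 0.079 (RARS2) to 1.32 (MARS2), and AIMP1 is the only gene below 0.

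Among the cytosolic synthetases, those for phenylalanine, tyrosine and methionine changed most. *FARSA* encodes the alpha subunit of phenylalanyl-tRNA synthetase and was measured at 38.2, 46.6 and 42.5 CPM with Ad CMV GFP and at 99.6, 147 and 162 CPM with Ad CMV 3xFlag-*Esrrg*. It rose 3.21-fold (log2 fold change 1.68 ± 0.17, SE; edgeR adjusted p = 5.27e-05). The beta subunit gene *FARSB* rose by a log2 fold change of 0.80 ± 0.12 (edgeR adjusted p = 0.000382), and whether the subunit genes differed in their change was not tested. *YARS1*, for tyrosine, was at 50.8, 64.9 and 61.9 CPM and at 142, 192 and 184 CPM, a rise of 2.92-fold (1.55 ± 0.14 on the log2 scale; edgeR adjusted p = 3.04e-05). *MARS1*, which loads methionine on initiator and elongator tRNAs alike, was at 78.4, 90.4 and 87.3 CPM and at 183, 253 and 269 CPM, a rise of 2.75-fold (1.46 ± 0.14; edgeR adjusted p = 4.97e-05). For all 3 genes the lowest library with Ad CMV 3xFlag-*Esrrg* lay well above the highest with Ad CMV GFP. Genes on the opposite strand share 12.4% of the exon bases of *MARS1*, and the sources used here do not state whether the counting used strand.

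The enzymes for alanine and serine followed. *AARS1* was at 84.5, 101 and 94.7 CPM with Ad CMV GFP and at 168, 220 and 237 CPM with Ad CMV 3xFlag-*Esrrg* (2.23-fold, log2 fold change 1.16 ± 0.14, edgeR adjusted p = 0.000115). *SARS1*, whose enzyme also charges the selenocysteine tRNA with serine, was at 66.2, 74.4 and 75.6 CPM and at 114, 179 and 178 CPM (2.18-fold, 1.12 ± 0.16, edgeR adjusted p = 0.000343). In both genes the groups were separate and replicate 2 lay between the Ad CMV GFP libraries and the other libraries with Ad CMV 3xFlag-*Esrrg*. The remaining cytosolic genes that rose were *GARS1* (glycine, log2 fold change 1.05), *WARS1* (tryptophan, 0.98), *KARS1* (lysine, 0.90), *QARS1* (glutamine, 0.84), *CARS1* (cysteine, 0.77), *IARS1* (isoleucine, 0.74) and *HARS1* (histidine, 0.70). *CARS1* had only 179 to 470 counts per library, and 85.9% of its 31-base words also occur in alternate contigs. When counts were corrected for GC and length, *QARS1* (0.50) and *CARS1* (0.54) no longer passed 1.5-fold. With the percentage of reads in no gene as a covariate, *KARS1* (0.26, edgeR adjusted p = 0.0794), *QARS1* (0.24) and *CARS1* (0.38) passed neither criterion, *SARS1* (0.45) and *WARS1* (0.47) fell short of 1.5-fold, and the cytosolic genes still called were *FARSA*, *YARS1*, *MARS1*, *AARS1* and *GARS1*.

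The cytosolic synthetases for leucine, arginine, glutamate with proline, asparagine and threonine were not called. *LARS1* was at 302, 283 and 293 CPM with Ad CMV GFP and at 313, 324 and 298 CPM with Ad CMV 3xFlag-*Esrrg* (log2 fold change 0.090 ± 0.095, edgeR adjusted p = 0.454). The groups overlapped, and *LARS1* was the only cytosolic synthetase for which they did. When counts were corrected for GC and length, its log2 fold change was 0.48 (edgeR adjusted p = 0.00183), still under 1.5-fold. *RARS1* was at 129, 128 and 134 CPM and at 143, 165 and 152 CPM (0.24 ± 0.09, edgeR adjusted p = 0.0594). *EPRS1*, a fused enzyme for glutamate and proline, was at 172, 165 and 162 CPM and at 175, 228 and 203 CPM (0.28 ± 0.11, edgeR adjusted p = 0.0582). Replicate 2 of *EPRS1* was thus barely above the highest Ad CMV GFP library. *NARS1* was at 116, 111 and 108 CPM and at 134, 163 and 149 CPM (0.41 ± 0.10, edgeR adjusted p = 0.00656). *TARS1* was at 129, 132 and 129 CPM and at 152, 198 and 175 CPM (0.43 ± 0.11, edgeR adjusted p = 0.00854). *NARS1* and *TARS1* passed the adjusted p but not 1.5-fold, and both would be called without Ad CMV 3xFlag-*Esrrg* replicate 2. With library size as the only scaling, *LARS1*, *RARS1* and *EPRS1* had log2 fold changes below 0.

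**Figure D2:**
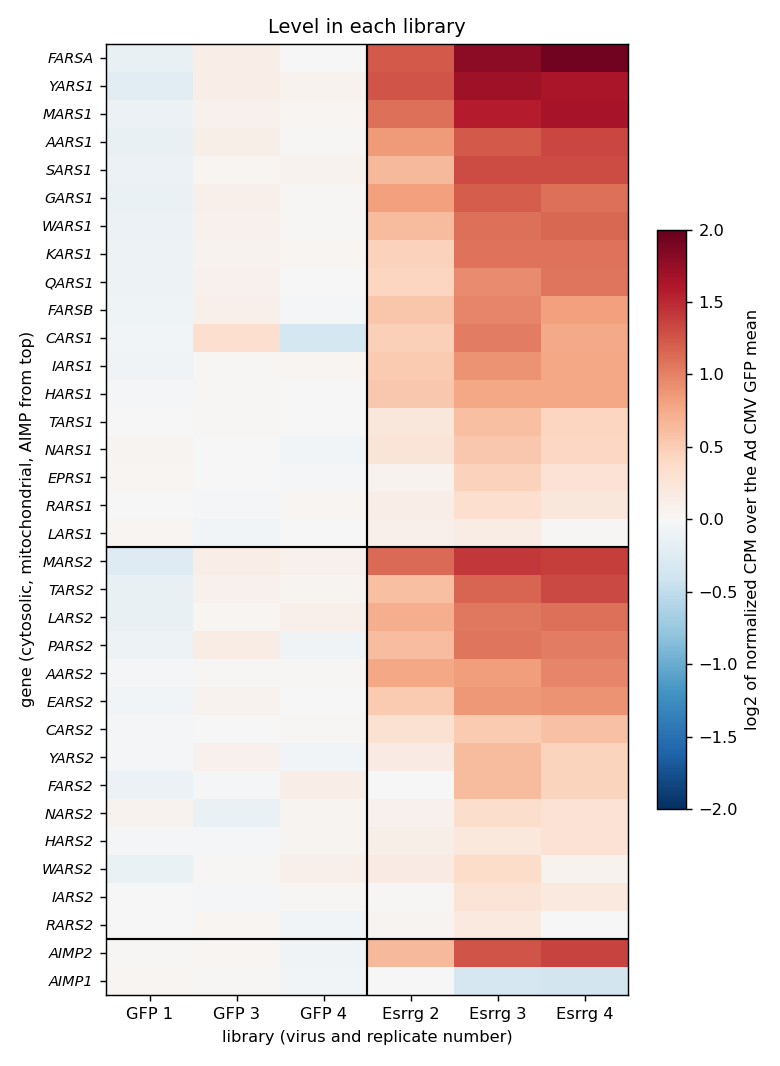
Level of the 34 tested genes (rows) in each library (columns) as the log2 of CPM over the mean of the Ad CMV GFP libraries, with cytosolic synthetases at the top, mitochondrial ones in the middle and the AIMP genes at the bottom. Replicates 3 and 4 with Ad CMV 3xFlag-Esrrg are the darker columns, and the library median for the cytosolic genes is 0.53 in replicate 2, 1.00 in replicate 3 and 0.95 in replicate 4.

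The multisynthetase complex was described from the 9 genes of the list that belong to it by textbook knowledge. Of these, 5 were higher and 0 were lower, beside 25.9% and 12.4% of tested protein-coding genes. The log2 fold changes of the 9 genes spread from -0.23 (*AIMP1*) through a median of 0.74 to 1.46 (*MARS1*). *AIMP2*, the scaffold around which the complex is built, was at 14.0, 14.3 and 13.2 CPM with Ad CMV GFP and at 21.6, 33.2 and 35.6 CPM with Ad CMV 3xFlag-*Esrrg*, a rise of 2.18-fold (log2 fold change 1.12 ± 0.17, edgeR adjusted p = 0.000403). Genes on the opposite strand share 29.1% of the exon bases of *AIMP2*, and with the percentage of reads in no gene as a covariate it was not called (0.43). *AIMP1*, whose protein binds tRNA and is also secreted as the precursor of a cytokine, was at 54.3, 54.1 and 50.9 CPM and at 53.1, 42.1 and 41.1 CPM (-0.23 ± 0.11, edgeR adjusted p = 0.121). The *AIMP1* groups overlapped through replicate 2, and its log2 fold change was 0.041 when counts were corrected for GC and length. It was -0.53 with library size as the only scaling, -0.36 with protein-coding genes only and -0.24 without replicate 2. Each of these 3 values passed the adjusted p but not 1.5-fold. Of the synthetases in the complex, *MARS1*, *KARS1*, *QARS1* and *IARS1* rose, whereas *EPRS1*, *RARS1* and *LARS1* were not called. With the covariate, *MARS1* was the only one of these synthetases still called, and *IARS1* (0.43) fell short of 1.5-fold. The third scaffold gene, *EEF1E1*, rose by a log2 fold change of 0.67 ± 0.15 (edgeR adjusted p = 0.00362) and is not among the 9; with library size as the only scaling (0.34) and with the covariate (0.37) it was not called.

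In mitochondria, the enzymes for methionine, threonine, leucine, proline, alanine and glutamate were higher. *MARS2* was at 7.34, 9.57 and 9.34 CPM with Ad CMV GFP and at 19.2, 23.4 and 22.8 CPM with Ad CMV 3xFlag-*Esrrg*, a rise of 2.49-fold (log2 fold change 1.32 ± 0.13, edgeR adjusted p = 5.83e-05). *TARS2* was at 32.7, 38.2 and 37.6 CPM and at 55.2, 81.4 and 90.3 CPM (2.09-fold, 1.06 ± 0.16, edgeR adjusted p = 0.000474). Both genes were separate between groups, and replicate 2 stood apart more in *TARS2* than in *MARS2*. *LARS2* was at 45.6, 52.1 and 54.4 CPM and at 83.8, 105 and 108 CPM (1.96-fold, 0.97 ± 0.12, edgeR adjusted p = 0.000153). *PARS2* was at 7.66, 9.15 and 7.83 CPM and at 12.6, 17.2 and 16.7 CPM (1.89-fold, 0.92 ± 0.15, edgeR adjusted p = 0.000575). *AARS2* was at 21.5, 22.2 and 22.2 CPM and at 37.6, 39.3 and 43.4 CPM (1.82-fold, 0.87 ± 0.10, edgeR adjusted p = 8.44e-05). *AARS2* was the most even of the called genes over the Ad CMV 3xFlag-*Esrrg* libraries, with 85.1% of the change already in replicate 2, and it fell short of 1.5-fold when counts were corrected for GC and length (log2 fold change 0.49). *EARS2* rose by 0.77 ± 0.11 on the log2 scale (edgeR adjusted p = 0.000389). With the percentage of reads in no gene as a covariate, *MARS2*, *LARS2* and *AARS2* were the mitochondrial genes still called.

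The other 8 tested mitochondrial synthetases were not called, and 3 of them overlapped between groups. *RARS2* was at 62.8, 64.0 and 60.3 CPM with Ad CMV GFP and at 64.5, 71.3 and 61.8 CPM with Ad CMV 3xFlag-*Esrrg* (log2 fold change 0.079 ± 0.092, edgeR adjusted p = 0.503). *IARS2* was at 223, 220 and 226 CPM and at 228, 270 and 256 CPM (0.17 ± 0.10, edgeR adjusted p = 0.177). *WARS2* was at 12.2, 13.5 and 14.3 CPM and at 14.96, 17.1 and 14.0 CPM (0.20 ± 0.12, edgeR adjusted p = 0.177). *RARS2* and *WARS2* were thus measured within the Ad CMV GFP range in at least 1 library of the other group. *HARS2* was at 52.2, 51.4 and 54.7 CPM and at 57.5, 61.2 and 64.8 CPM (0.21 ± 0.09, edgeR adjusted p = 0.0729). *NARS2* was at 16.6, 14.4 and 16.5 CPM and at 16.8, 20.3 and 19.4 CPM (0.25 ± 0.11, edgeR adjusted p = 0.0885), and was called higher when counts were corrected for GC and length (0.61, edgeR adjusted p = 0.0034). *FARS2*, *YARS2* and *CARS2* stood at log2 fold changes of 0.38, 0.43 and 0.48, of which the last 2 passed the adjusted p but not 1.5-fold. Without Ad CMV 3xFlag-*Esrrg* replicate 2, these 3 genes were called higher. With library size as the only scaling, *RARS2*, *IARS2*, *WARS2*, *HARS2* and *NARS2* had log2 fold changes below 0.

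*SARS2* and *VARS2* had 0 counts in every library, which allows up to 3 counts each by counting error. *SARS2* (chr19:38915266-38930763, minus strand, GRCh38) shares 48.2% of its exon bases with a read-through gene on the same strand, to which 0 counts were assigned too. For *VARS2* (chr6:30914205-30926459, plus strand), 84.7% of the 31-base words also occur in alternate contigs, and 63.0% of its exon bases are shared with genes on the same strand. *VARS1*, the cytosolic partner of *VARS2*, is not in the list and was at 0 as well, with 85.2% of its words in alternate contigs. The part of these overlaps in the zeros was not tested, and no statement on the valine and mitochondrial serine enzymes can be drawn from this table.

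Per kilobase of the canonical transcript, levels with Ad CMV GFP ran from 2.52 CPM (*CARS1*) to 72.8 CPM (*KARS1*) among the cytosolic synthetases and from 2.89 CPM (*MARS2*) to 63.1 CPM (*IARS2*) among the mitochondrial ones. With Ad CMV 3xFlag-*Esrrg* the highest were *KARS1* at 136 CPM, *GARS1* at 127 CPM and *QARS1* at 104 CPM per kilobase. *LARS1*, at 61.5 CPM per kilobase, was among the more abundant genes with Ad CMV GFP and was at 65.4 CPM per kilobase with Ad CMV 3xFlag-*Esrrg*. The 18 cytosolic genes summed to 1968, 2091 and 2052 CPM with Ad CMV GFP (mean 2037 ± 62.7, SD, n = 3) and to 2885, 3776 and 3677 CPM with Ad CMV 3xFlag-*Esrrg* (3446 ± 489, SD, n = 3), a ratio of 1.69. The 14 tested mitochondrial genes summed to 613, 633 and 641 CPM (628.9 ± 14.6, SD, n = 3) and to 760, 924 and 912 CPM (865 ± 91.4, SD, n = 3), a ratio of 1.38. In both sums the groups were separate and replicate 2 was the lowest of its group.

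Cytosolic and mitochondrial enzymes for the same amino acid were set against each other in 15 pairs. The cytosolic gene had the larger log2 fold change in 11 pairs and the mitochondrial gene in 4, and the median difference was 0.29. With the percentage of reads in no gene as a covariate these counts were 9 and 6, and the median difference was 0.16. The alanine (-0.021) and methionine (-0.11) pairs then turned to the mitochondrial side. With counts corrected for GC and length the counts were also 9 and 6, with a median difference of 0.35. Without these adjustments, the pairs *FARSA* with *FARS2* and *YARS1* with *YARS2* differed by 1 or more. The other phenylalanine pair, *FARSB* with *FARS2*, differed by 0.42. For *FARSA* and *FARS2*, the latter at 19.7, 20.8 and 23.4 CPM with Ad CMV GFP and at 21.3, 32.9 and 28.9 CPM with Ad CMV 3xFlag-*Esrrg*, the difference in log2 fold change was 1.30. The log2 ratio of *FARS2* to *FARSA* was -0.95, -1.17 and -0.86 with Ad CMV GFP and -2.22, -2.16 and -2.49 with Ad CMV 3xFlag-*Esrrg* (exact permutation test, two-sided, p = 0.1). For *YARS1* and *YARS2*, the latter at 15.8, 17.0 and 15.5 CPM and at 17.9, 24.9 and 21.9 CPM, the difference was 1.12. The log2 ratio of *YARS2* to *YARS1* was -1.69, -1.94 and -1.998 with Ad CMV GFP and -2.99, -2.95 and -3.07 with Ad CMV 3xFlag-*Esrrg* (exact permutation test, two-sided, p = 0.1). Both ratios were separate between groups. These pairs were picked by their difference in the same libraries, so this separation adds no independent support. The smallest p that 3 libraries against 3 allow is 0.1, so no ratio could pass 0.05.

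The pairs with the larger change in mitochondria were those for leucine (*LARS1* and *LARS2*, cytosolic minus mitochondrial log2 fold change -0.88), proline (*EPRS1* and *PARS2*, -0.64), threonine (*TARS1* and *TARS2*, -0.63) and glutamate (*EPRS1* and *EARS2*, -0.49). With counts corrected for GC and length these differences were -0.48, -0.22, -0.34 and -0.18, and the asparagine (-0.057) and arginine (-0.017) pairs turned to the same side, so that the cytosolic change was larger in 9 pairs. In all 4 of the pairs named first the log2 ratios were separate between groups, at the same smallest p of 0.1 (exact permutation test). These 4 pairs were likewise picked by their changes in the same libraries. For leucine the log2 ratio of *LARS2* to *LARS1* was -2.73, -2.44 and -2.43 with Ad CMV GFP and -1.90, -1.62 and -1.46 with Ad CMV 3xFlag-*Esrrg*. In the methionine pair both genes rose, with log2 ratios of *MARS2* to *MARS1* of -3.42, -3.24 and -3.23 and of -3.25, -3.44 and -3.56, which overlapped between groups (exact permutation test, two-sided, p = 0.2). *HARS1* and *HARS2* start 107 bases apart on opposite strands, and *HARS1* rose (log2 fold change 0.70) whereas *HARS2* was at 0.21. Opposite-strand genes share 8.46% of the exon bases of *HARS1*.

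**Figure D3:**
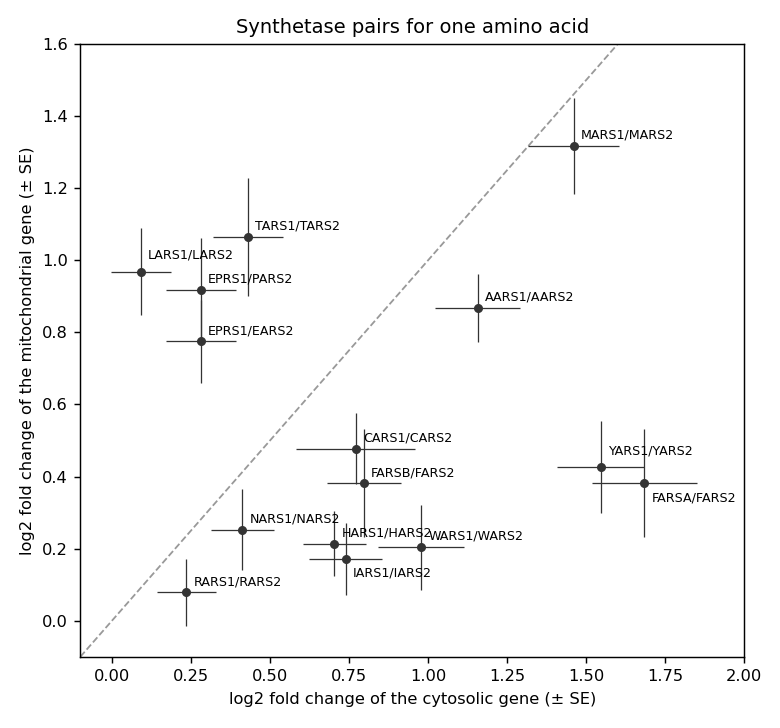
Log2 fold change (Ad CMV 3xFlag-Esrrg over Ad CMV GFP) of the cytosolic gene (horizontal axis) and the mitochondrial gene (vertical axis) for 15 pairs, with bars of 1 SE and a dashed line of equal change. The 11 pairs below the line include FARSA/FARS2 and YARS1/YARS2 at the far right, and the 4 pairs above it are those for leucine, threonine, proline and glutamate.

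The C/EBP-ATF element printed above was set beside the changes as a description, for the 16 cytosolic genes with a promoter entry, which leave out *YARS1* and *LARS1*. The 7 cytosolic synthetases with TGATGNAA in the promoter had a median log2 fold change of 0.77, with 5 called higher, and the 9 without it had a median of 0.84, with 7 called higher. With counts corrected for GC and length the order of these medians turned, to 0.95 with the element and 0.84 without it. The order stayed with library size as the only scaling (0.44 with it, 0.50 without). It also stayed with the percentage of reads in no gene as a covariate (0.43 with it, 0.45 without). *MARS1*, *AARS1* and *GARS1* carried the element and rose, with log2 fold changes of 1.16 for *AARS1*, 1.46 for *MARS1* and 1.05 for *GARS1*. *NARS1* and *TARS1* carried the element too and were not called. *FARSA*, *SARS1* and *WARS1* rose without a match in the 300 bases. *YARS2*, the mitochondrial gene with a match, had a log2 fold change of 0.43. Among the 11099 tested protein-coding genes with a promoter, 3.07% held the element, and their median log2 fold change was -0.05 against 0.14 for the others. The ERR element was in 0.82% of these genes, with medians of 0.12 with it and 0.14 without it.

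The genes of this family with a higher GC content had larger changes. Across the 34 tested genes the exon GC content and the log2 fold change had a Pearson correlation of 0.59 and a Spearman correlation of 0.58. The same correlations were 0.33 and 0.37 over 24232 tested genes, all measured in the same 6 libraries. Within the cytosolic synthetases they were 0.69 and 0.62 (18 genes), and within the mitochondrial ones 0.55 and 0.61 (14 genes). *FARSA* had the highest GC content (61.1%) and the largest change, and *LARS1* (39.4%) and *RARS2* (38.6%) were at the other end of both scales. *GARS1* departed from the pattern, with a GC content of 39.0% and a log2 fold change of 1.05. The mitochondrial genes had a median GC content of 49.1% and the cytosolic genes one of 46.2%. The part of GC content in the difference between the classes was not tested. With counts corrected for GC and length in every library, the correlations were 0.11 and 0.13. The correction fits each library's trend with GC content and length over the tested genes and removes it. These lower correlations are thus largely built in, and a change by the virus that goes with GC content would be removed too. Under this correction the medians were 0.85 for the cytosolic and 0.48 for the mitochondrial synthetases. The genes called higher were 11 and 6, the 6 with *NARS2* in place of *AARS2*, beside 20.6% of protein-coding genes under the same correction.

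**Figure D4:**
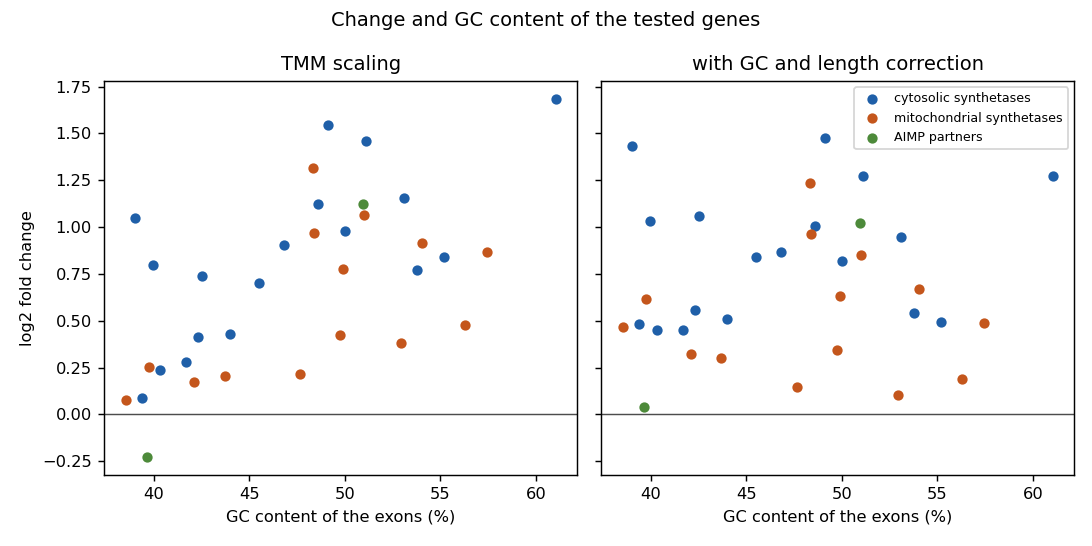
Log2 fold change (vertical axis) against the GC content of the exons (horizontal axis, percent) for the 34 tested genes, with TMM scaling on the left and with counts corrected for GC and length on the right. The Pearson correlation goes from 0.59 on the left to 0.11 on the right, and AIMP1 is the gene below 0 on the left. The correction removes each library's trend with GC content, so the fall of the correlation is largely built in.

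Related steps of translation were read from lists of genes that are not synthetases of the list above. Of the genes of mitochondrial translation factors, 15 were tested, 3 were higher and 0 lower, with a median log2 fold change of 0.21. The 3 were *TUFM*, the elongation factor that brings charged tRNA to the mitochondrial ribosome (1.54 ± 0.16, edgeR adjusted p = 7.2e-05), *GATB*, a subunit of the amidotransferase that makes mitochondrial glutaminyl-tRNA (1.00 ± 0.15), and *MTFMT*, which formylates the initiator methionyl-tRNA (0.68 ± 0.12). Of 15 genes for the maturation of mitochondrial tRNA, 5 were higher and 0 lower (median 0.33), led by *HSD17B10*, a subunit of mitochondrial RNase P (1.88 ± 0.22), the pseudouridine synthase gene *PUS1* (1.05 ± 0.11), *GTPBP3*, which modifies the wobble base (0.94 ± 0.11), and *ELAC2*, which cuts the 3′ end (0.82 ± 0.13). Of 9 tested genes for other charging enzymes and factors, 2 were higher and 1 was lower (median 0.21). These were *EEF1E1*, *DTD1*, a D-aminoacyl-tRNA deacylase (0.61 ± 0.17), and *SEPSECS*, which makes selenocysteinyl-tRNA (-0.91 ± 0.12). The counts in these lists stand beside 25.9% higher among protein-coding genes. Among the other charging genes 0 were higher with library size as the only scaling or with the covariate and 4 with counts corrected for GC and length, which also gave 6 higher translation factor genes, whose median was -0.11 with library size alone.

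Genes of the amino acid response, the program of ATF4 and its partners, were mostly higher. Of 31 tested genes, 24 were higher (77.4%, beside 25.9% of protein-coding genes) and 1 was lower, with a median log2 fold change of 0.99. The called genes with the largest changes were *GDF15*, a stress-induced secreted factor (2.71 ± 0.17), *SLC7A5*, the transporter of large neutral amino acids (1.83 ± 0.14), *STC2*, a secreted glycoprotein (1.76 ± 0.20), and *EIF4EBP1*, an inhibitor of cap-dependent translation (1.68 ± 0.19). *ATF4* itself, added after its values were seen, was at 67.9, 76.7 and 70.8 CPM with Ad CMV GFP and at 139, 205 and 208 CPM with Ad CMV 3xFlag-*Esrrg* (1.36 ± 0.15, edgeR adjusted p = 8.3e-05). *JDP2* was the gene called lower (-0.70 ± 0.13). *SLC38A2*, also added after its values were seen, had mean levels of 514 CPM with Ad CMV GFP and 355 CPM with Ad CMV 3xFlag-*Esrrg*. Its change (-0.53 ± 0.10, edgeR adjusted p = 0.00135) passed the adjusted p but not 1.5-fold. With library size as the only scaling, and with protein-coding genes only, 2 genes of this list were called lower. The asparagine synthetase gene *ASNS*, a well-known member that was likewise added after its values were seen, was at 2.27, 1.88 and 1.36 CPM and at 1.98, 1.34 and 1.32 CPM (-0.25 ± 0.26, edgeR adjusted p = 0.448), and 49.3% of its exon bases are shared with another gene on the same strand. With the percentage of reads in no gene as a covariate, 19 genes of this list were higher and 1 was lower.

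**Figure D5:**
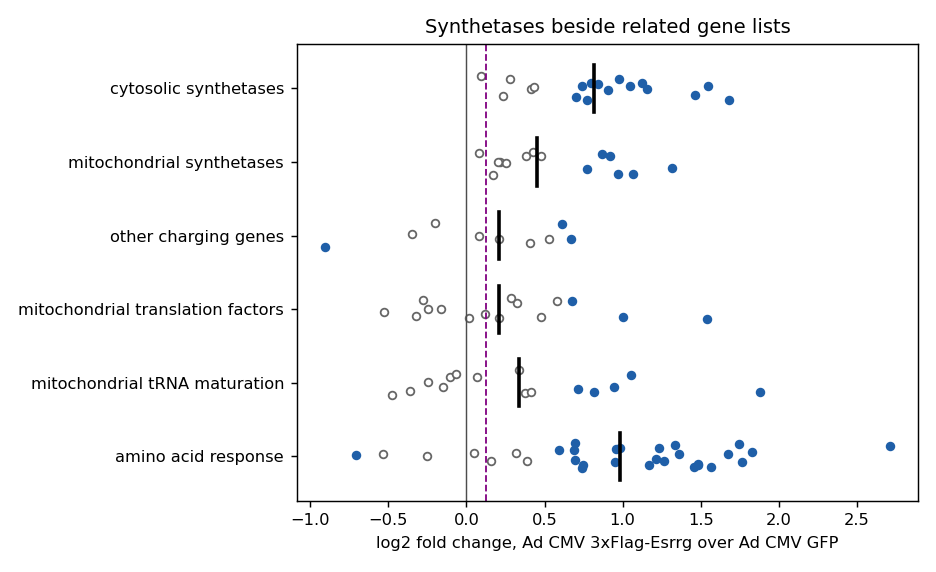
Log2 fold change (horizontal axis, Ad CMV 3xFlag-Esrrg over Ad CMV GFP) of the tested genes of 6 lists, with filled points for called genes, black bars at each median and a dashed line at the median of protein-coding genes (0.12). The medians are 0.82 for the cytosolic and 0.45 for the mitochondrial synthetases, 0.99 for the amino acid response and 0.21 to 0.33 for the other lists.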

How the data were processed

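Per the labels, the libraries were directional and ribosomal RNA was depleted, and the submitters' processing notes name CASAVA, Trim Galore 0.6.7, STAR 2.7.9a, HTSeq 0.11.3, DESeq2 and GRCh38. The authors deposited raw counts per gene. The annotation release and the strand setting are not given in the sources used here, and reads that align to several places or to overlapping genes were left uncounted by the authors. Identifiers were matched to GENCODE 44, in which 90.1% of them were found, and symbols, GC content, lengths and exon overlaps came from that release.

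Counts were analysed with edgeR 4.0.16 in R 4.3.3 (filterByExpr, TMM scaling, quasi-likelihood test, Benjamini-Hochberg over 24500 genes). A call needed an adjusted p below 0.05 and at least 1.5-fold. SE was taken as the size of the log2 fold change divided by the root of F. CPM used TMM factors, and a prior count of 2 was added on log scales. Paralog ratios were tested by exact permutation (numpy 2.4.6), and correlations were computed with scipy 1.17.1. The fits were tested on simulated data. Transcripts were cut into 31-base words, which were searched in 261 alternate contigs. DESeq2 1.42.0 and mgcv 1.9.3 served the alternatives.

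The members and all lists were chosen with earlier results of these data known, so no test was run over a list. Values per library are given for the 5 largest and 5 smallest log2 fold changes in the cytosolic and in the mitochondrial group, for the AIMP genes and for pairs that differ by 1 or more. Of each related list at most 4 called genes with the largest change and a mean of at least 50 counts are named. The marker genes *TH*, *CHGA* and *CD3E*, and *VARS1*, are named for their place in a list. *ATF4*, *ASNS* and *SLC38A2* were added after their values were seen. Some genes of the lists are not reported here by name.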

Additional observations from a re-analysis of the deposited data

Results flagged for a closer look

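Reads that HTSeq set aside as ambiguous or as aligned to several places are not part of the comparisons above, and the share of each of these classes was higher in every Ad CMV 3xFlag-*Esrrg* library than in every Ad CMV GFP library. Reads called ambiguous between overlapping genes made up 5.69%, 9.84% and 9.79% of all reads in replicates 2, 3 and 4 with Ad CMV 3xFlag-*Esrrg*, and 4.55%, 4.81% and 4.87% with Ad CMV GFP. Reads aligned to several places made up 9.33%, 12.7% and 13.0% with Ad CMV 3xFlag-*Esrrg*, and 7.26%, 7.41% and 7.16% with Ad CMV GFP. Which genes these reads came from was not analysed here.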

How the results depend on the processing

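The 34 tested genes were refitted under 19 alternatives, and 573 of the 646 values kept their direction and their side of the call, 45 lost the call, 14 gained it and 14 changed sign. With library size as the only scaling, which moved the median of all tested genes from -0.10 to -0.42, 7 cytosolic (median log2 fold change 0.48) and 3 mitochondrial synthetases (median 0.12) were higher, and log2 fold changes turned to -0.048 for *EPRS1*, -0.23 for *LARS1*, -0.088 for *RARS1*, -0.11 for *HARS2*, -0.15 for *IARS2*, -0.076 for *NARS2*, -0.24 for *RARS2* and -0.12 for *WARS2*, none of which was called. With the percentage of reads in no gene as a covariate, 5 cytosolic (median 0.44) and 3 mitochondrial synthetases (median 0.20) were higher, *AIMP2* was not called (0.43), and *FARS2* (-0.14), *IARS2* (-0.024) and *AIMP1* (0.11) changed sign. A 2-fold cutoff left 6 and 2, and a test against a 1.5-fold threshold left 7 cytosolic and 5 mitochondrial synthetases, by their stricter construction. The settings called 11.3% and 14.1% of protein-coding genes higher, and 18 cytosolic and 14 mitochondrial synthetases were tested. With protein-coding genes only, *LARS1* (-0.044) and *RARS2* (-0.056) changed sign, and with the GC and length correction *AIMP1* did (0.041). Leaving out each library gave 13 to 15 cytosolic synthetases with medians of 0.75 to 1.06 and 6 to 9 mitochondrial ones with medians of 0.39 to 0.66, the upper ends without Ad CMV 3xFlag-*Esrrg* replicate 2. The cause was not tested in any of these cases. With the replicate block, 13 cytosolic (median 0.92) and 6 mitochondrial synthetases (median 0.53) were higher, and no call changed. Only numbers 3 and 4 occur in both groups, and deviations from the group means correlated at 0.33 and 0.27 within a number and at 0.37 and 0.24 across numbers, so the numbers were not taken to pair the libraries. Every alternative called 0 synthetases lower. *CARS1*, at 179 to 470 counts per library, had the largest SE of the tested genes (0.19), and *SARS2* and *VARS2* had no counts to test.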
